A study of Mus musculus with 18 samples.

Results

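The cytosolic ribosomal protein genes described here are 88 of the 55291 genes in the expression table. They are the rows whose name starts with Rpl or Rps followed by a digit, by p0, p1 or p2, or by a (Rpsa), without the Rps6k kinases and names that contain -ps, and with a mean of at least 5 transcripts per 1000000 (TPM) over 18 libraries. Of 94 names of this form, 6 were under that level (Rpl10l, Rps12l1, Rps23rg1, Rpl3l, Rpl32l and Rps4l), the highest of them Rps4l at 2.89 TPM, and the lowest members were Rpl6l at 6.20 TPM and Rps27rt at 6.46 TPM. By name, 52 members belong to the large (60S) and 36 to the small (40S) subunit. Rps19bp1 and Rpl7l1 carry such a name without being proteins of the mature ribosome, and Rps3a2, Rps3a3, Rpl6l, Rpl37rt and Rps27rt are gene copies, of which GENCODE M21 annotates all but Rps27rt as processed pseudogenes; they were kept because the name rule takes them.

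The libraries are bulk RNA-seq of tumours grown from mouse cells inoculated under the skin of BALB/cJ or C57BL/6J mice. The cells were CT26, a colon carcinoma line of BALB/c origin, CT26-NY-ESO-1 (written CT26NYESO1 in the group names), a CT26 derivative that carries the name of the tumour antigen NY-ESO-1, or LL/2 (LL2), the Lewis lung carcinoma line of C57BL/6 origin. Each tumour type has 3 control libraries (Ctrl) and 3 libraries of tumours treated for 24 hours with OK-432, a preparation of inactivated streptococci, injected into the tumour, and tumours were collected on day 14. The labels do not say what the controls received, whether replicate libraries are from different animals, or which strain carried which line, so p-values measure only the spread between these libraries, and for LL2 the line and the host strain cannot be told apart.

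Each ribosome carries 1 copy of nearly every ribosomal protein, and cells make these proteins in matched amounts from many unlinked genes. Their mRNAs are among the most abundant in growing cells and mostly begin with a run of pyrimidines, the terminal oligopyrimidine motif through which the mTOR kinase sets their translation. A few members have a paralogue whose protein can take the same place in the ribosome, and mammalian genomes also hold many processed pseudogenes of these genes, copies of the spliced mRNA inserted elsewhere.

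Start-site sequences held a pyrimidine run in part of the members. The RefSeq promoter table (GRCm38.p6) matched 65 of the 88 members. Within 60 bases around the annotated start, on the sense strand, 34 of the 65 (52.3%) held a C followed by at least 7 pyrimidines, against 20.6% of the 27025 genes in that table. The motif CCGGAAG, a binding sequence of ETS factors read on both strands, occurred in 300 bases around the start of 26 of the 65 (40.0%), against 9.93% of all genes. These are 4 of the windows, 2 with a long and 2 with a short run, with the run in capitals. Rpl7a is chr2:26910787-26910816 on the plus strand, Rpl27a is chr7:109519183-109519212 plus, Rps6 is chr4:86857347-86857376 minus, and Rpl28 is chr7:4792955-4792984 plus.
Rpl7a: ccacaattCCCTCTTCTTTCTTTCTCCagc
Rpl27a: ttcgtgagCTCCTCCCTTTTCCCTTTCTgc
Rps6: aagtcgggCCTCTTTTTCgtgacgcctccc
Rpl28: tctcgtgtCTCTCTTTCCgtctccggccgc

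None of the 88 members was listed at 0 in any library, although Rpl39l was as low as 0.0647 TPM in LL2. TPM counts transcripts per length, so levels can be compared between genes, with a limit. For some members, described below, much of the TPM is listed under near-identical copies elsewhere in the genome, which a ranking by own row leaves out. By own row, the highest means over the 18 libraries were those of Rpl13 (4214 TPM), Rps18 (3925 TPM), Rpl8 (3608 TPM), Rps15 (3418 TPM) and Rps12 (3355 TPM). The lowest were Rps19bp1 (69.0 TPM), Rpl37rt (23.5 TPM), Rps3a3 (10.9 TPM), Rps27rt and Rpl6l, of which 4 are copies of other members and Rps19bp1 encodes a binding partner of Rps19. The median member stood at 990 TPM in CT26, 1538 TPM in CT26NYESO1 and 1447 TPM in LL2 tumours.

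Over whole libraries, TPM sums to 1000000 in each, the files hold no read totals, and the depth behind a value is unknown. Neutrophil markers had higher sums in the treated libraries: 5 genes (S100a8, S100a9, Csf3r, Cxcr2 and Retnlg) summed to 26.6 to 32.0 TPM in CT26 controls and 100.4 to 176 TPM in treated CT26 tumours, to 10.6 to 16.9 and 81.1 to 685 TPM in CT26NYESO1, and to 19.4 to 32.8 and 131 to 216 TPM in LL2. As single genes, 3 of the 5 passed the test described below as higher in CT26NYESO1, 0 in CT26 and 0 in LL2. The 5 epithelial markers (Epcam, Krt8, Krt18, Krt19 and Cdh1) summed to 374 to 568 TPM in LL2 controls and 443 to 468 TPM in treated LL2 tumours. Nearly all of this was Krt8 and Krt18, which averaged 197 and 266 TPM in LL2. The sum of the 5 stayed at 2.21 TPM or less in CT26 libraries, although CT26 is a carcinoma line, and at 24.4 TPM or less in CT26NYESO1. Only 3 of the 5 were tested, and 2 were called higher in LL2 than in CT26 controls. In a bulk sample, fewer cells of a type and less RNA per cell cannot be told apart.

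The first question was whether ribosomal protein mRNA levels differed between the tumour types and with OK-432. In CT26 controls the 88 members made up 9.56%, 9.08% and 10.4% of all TPM, a mean of 9.67% ± 0.641 (SD, n = 3). In CT26NYESO1 controls the share was 14.7%, 15.6% and 15.0%, with a mean of 15.1% ± 0.480, and in LL2 controls it was 15.3% ± 0.202. Every CT26 library lay below every library of the other tumour types, which overlapped each other. The share was 1.56 times as high in CT26NYESO1 and 1.58 times as high in LL2 as in CT26. OK-432 libraries stood at 9.96% ± 0.281 in CT26, 16.0% ± 0.945 in CT26NYESO1 and 15.6% ± 0.711 in LL2, which is 1.03, 1.06 and 1.02 times the controls, and their values overlapped those of the controls in each tumour type. Large-subunit members held 5.37% and small-subunit members 4.29% of TPM in CT26 controls, 8.69% and 6.43% in CT26NYESO1, and 8.75% and 6.57% in LL2.

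**Figure D1:**
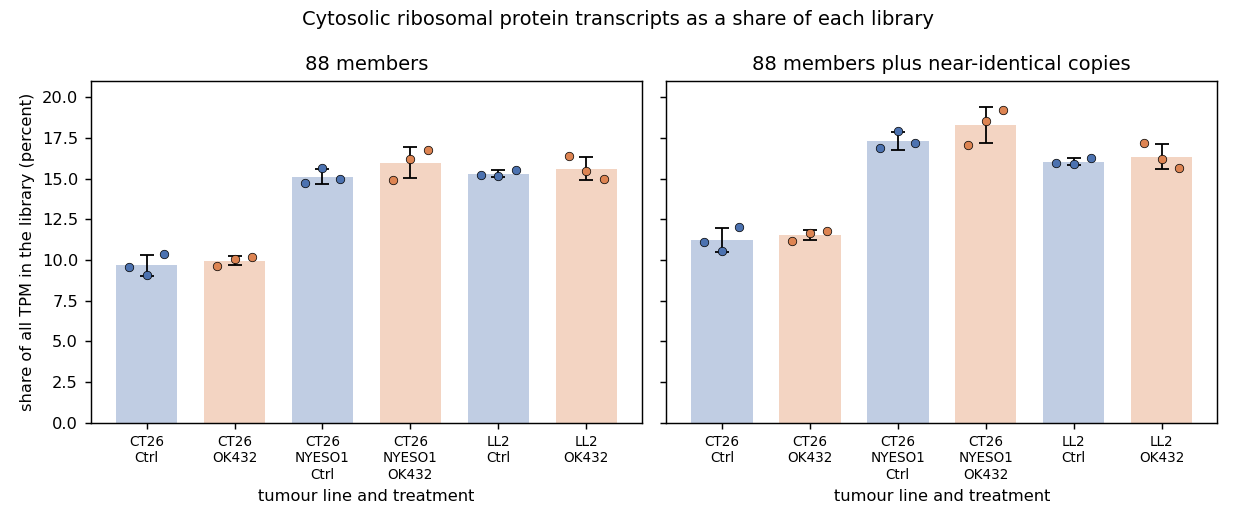
Share of all TPM in each library (percent, vertical axis) held by the 88 cytosolic ribosomal protein genes (left) and by these genes plus their near-identical copies elsewhere in the genome (right). Bars are means and whiskers SD of 3 libraries, points are libraries, and the horizontal axis gives tumour line and treatment. CT26 libraries lie between 9.08% and 10.4% on the left, below all others.

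OK-432 left no member past the test. With limma on log2(TPM + 1), Benjamini-Hochberg adjustment over the 16816 genes tested and a threshold of 0.05, 0 of 88 members were called in CT26, CT26NYESO1 or LL2 tumours, or in the average of the 3. Among all genes tested, 0% were called in CT26, 0.666% in CT26NYESO1, 0.0178% in LL2 and 0.172% in the average, so the background was close to 0 as well. At an unadjusted p under 0.05 there were 3, 16, 3 and 16 members (3.41%, 18.2%, 3.41% and 18.2%), against 4.1%, 16.2%, 5.26% and 10.3% of all genes. The median difference of the members was 0.05 in CT26, 0.08 in CT26NYESO1 and 0.03 in LL2 on the log2 scale, beside 0.00, -0.02 and -0.01 for all genes tested. The difference was above 0 for 79, 81 and 69 members, but single libraries moved these medians by more than 1.5 times. The CT26 median was 0.035, 0.0097 and 0.10 without control 1, 2 and 3, the CT26NYESO1 median 0.12 and 0.037 without treated libraries 1 and 3 and 0.028 under quantile normalization, and the LL2 median -0.015, 0.040 and 0.051 without treated libraries 1, 2 and 3, with its sign turned in the first case. No member differed in its OK-432 effect between tumour types: 0 of 88 were called in each of the 3 pairwise tests, against 0%, 0.00595% and 0.00595% of all genes.

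The members with the smallest p in each tumour type give the scale of these differences. Rplp2, a protein of the stalk that recruits elongation factors, stood at 707, 730 and 802 TPM in CT26NYESO1 controls and at 806, 885 and 890 TPM after OK-432. The groups did not overlap, yet the difference of 0.21 did not pass (limma adjusted p = 0.147). Rpl7l1, which takes part in ribosome assembly, stood at 87.9, 95.7 and 92.1 TPM in those controls and 75.7, 88.2 and 74.4 TPM after treatment, a difference of -0.21 (SE 0.06, limma adjusted p = 0.111). The second treated library overlapped the controls, and without it the value was -0.29 and the 1 call of a member after OK-432 (adjusted p = 0.010).

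In CT26, Rpl22, an RNA-binding protein of the large subunit, had 148, 158 and 175 TPM in controls and 292, 166 and 191 TPM after OK-432. The first treated library stood apart from the others, and skeletal muscle markers in these 3 treated libraries ranged from 3.16 to 129 TPM in sum, highest in the same library. Whether muscle content and the Rpl22 level are linked was not tested. Rps19bp1, which binds Rps19, differed by -0.17 (SE 0.06, limma adjusted p = 1) there. In LL2, Rpl13 had 6127, 5810 and 5461 TPM in controls and 6699, 6419 and 6129 TPM after treatment. The lowest treated library lay just above the highest control, and the difference of 0.15 did not pass (limma adjusted p = 0.896).

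**Figure D2:**
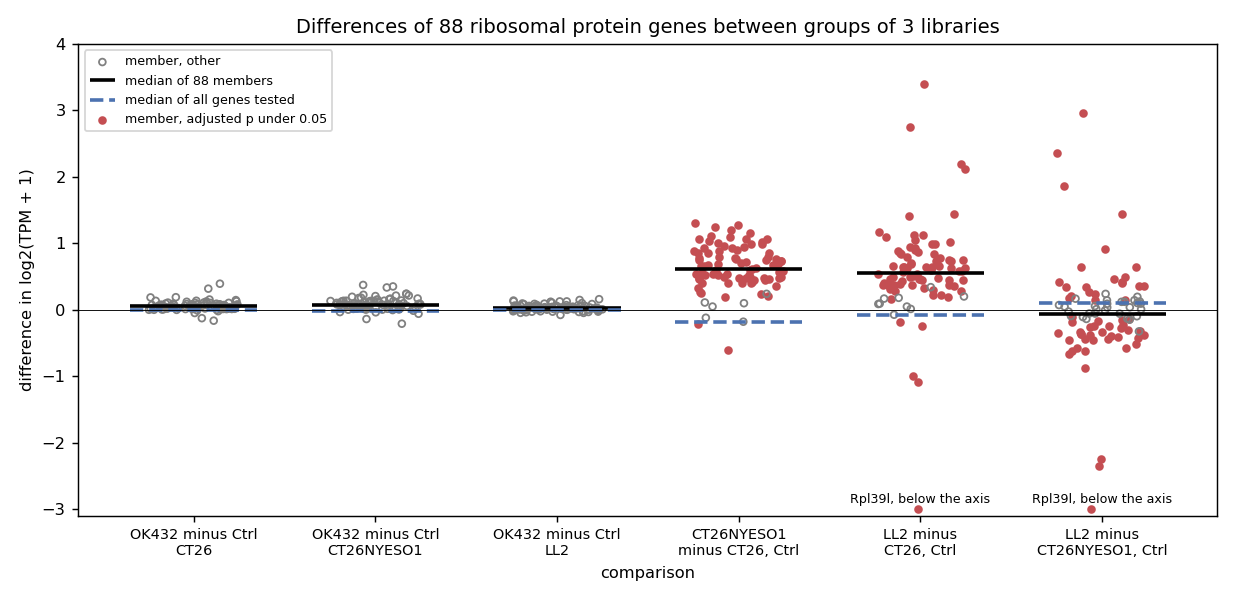
Difference in log2(TPM + 1) of each of the 88 members (points) in 6 comparisons of groups of 3 libraries. Filled points have an adjusted p under 0.05, black lines are medians of the members, and dashed lines are medians of all genes tested. The OK432 comparisons hold no filled point, and Rpl39l lies below the axis in both LL2 comparisons.

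Between the control libraries of the CT26-derived tumours, nearly all members were higher in CT26NYESO1. Of 88, 80 were called higher and 2 lower, against 21.1% higher and 43.9% lower (64.9% in either direction) among all genes tested. The members' median difference was 0.62 on the log2 scale, and that of all genes -0.18. In the OK-432 libraries, 80 were higher and 2 lower (all genes 20.9% and 45.6%, together 66.5%), with a median of 0.67. Of the calls in controls, 79 of the higher and both of the lower were made here as well. The group means come from other libraries, but all 18 libraries share 1 estimate of spread. The repeat is therefore not independent of the control comparison. Rescaling each library by its median ratio moved the median of all genes by more than 0.1, to 0.00, turned the split of all calls from 3546 higher and 7375 lower to 5115 and 5276, and left 83 members higher and 1 lower.

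The large-subunit gene Rpl34 differed most, with 967, 933 and 1053 TPM in CT26 and 2306, 2612 and 2379 TPM in CT26NYESO1 controls. No library overlapped, and the difference was 1.30 (SE 0.06, limma adjusted p = 1.1e-11). The Rps3a1 copies Rps3a3 (1.27) and Rps3a2 (1.24) and the large-subunit gene Rpl9 (1.16) were also among the largest differences, and 12 members reached 2-fold. In treated tumours, Rpl34 (1.31), Rpl28 (1.23), Rpl9 (1.22), Rpl37 (1.20) and Rps3a2 (1.18) led. The 2 members called lower were those outside the mature ribosome. Rpl7l1 fell from 131, 147 and 143 TPM in CT26 to 87.9, 95.7 and 92.1 TPM (-0.60, SE 0.06, limma adjusted p = 2.2e-07). Rps19bp1 was lower by a smaller amount (-0.22, adjusted p = 0.0025), and its sign turned under quantile normalization (0.0099).

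Members picked for their roles moved by unequal amounts in CT26NYESO1. Of the stalk proteins, Rplp1 differed by 1.10, Rplp0, the stalk base, by 0.60 (0.14, and lost, under quantile normalization) and Rplp2 by 0.48. Rps19, mutated in Diamond-Blackfan anaemia, went from 803, 694 and 877 TPM in CT26 to 1489, 1562 and 1662 TPM, with no overlap (0.99, SE 0.08, limma adjusted p = 9.2e-09). Rpl13a, which also acts in translational control outside the ribosome, differed by 0.96. Rpl5 and Rpl11, which bind 5S rRNA and can inhibit Mdm2, differed by 0.48 and 0.41. Smaller rises were those of Rps6, the substrate of S6 kinase (0.40), Rpsa, the laminin receptor precursor (0.35), and Rps27a, made as a fusion with ubiquitin (0.24, adjusted p = 0.013); under quantile normalization these 3 had the opposite sign (-0.048, -0.088 and -0.16). The Rps27a call was also lost without the second CT26 control (0.18) or the second CT26NYESO1 control (0.17).

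Among the highest members, Rpl13 and Rpl8 differed by 0.99 and 0.95, Rps12 by 0.77 and Rps18 by 0.47 (0.076, and lost, under quantile normalization). Rps15 is an exception, with 3519, 3205 and 3536 TPM in CT26 and 3094, 3189 and 3137 TPM in CT26NYESO1 controls. It did not pass (-0.12, SE 0.07, limma adjusted p = 0.14), and its value ran from -0.50, past the threshold, under quantile normalization to 0.10 under median-ratio rescaling.

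LL2 tumours also had higher levels of most members than CT26 tumours, with wider extremes. In controls, 74 members were called higher and 5 lower, against 29.1% and 39.7% of all genes (together 68.8%), with a median of 0.56 beside -0.08 for all genes. In OK-432 libraries the counts were 75 and 4 (all genes 28.9% and 40.4%, together 69.3%), with a median of 0.53, and 72 higher and 4 lower calls were shared. The comparison of LL2 with CT26NYESO1 was mixed: 22 were higher and 36 lower (all genes 38.8% and 27.5%, together 66.3%), with a median of -0.06, and in treated tumours 18 and 41 (all genes 39.8% and 27.4%, together 67.2%), with a median of -0.13. Quantile normalization brought this last comparison to 31 higher and 29 lower in controls, and median-ratio rescaling to 14 and 43. The 3 comparisons share their libraries in pairs, so they are not independent of each other.

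The panel differed between LL2 and CT26 in another order. Rpl13 (1.40), Rpl13a (0.996), Rplp1 (0.84), Rps6 (0.64), Rps27a (0.64), Rpl5 (0.62), Rplp2 (0.38), Rps19 (0.37) and Rpl11 (0.17, limma adjusted p = 0.0054, lost under quantile normalization at 0.067) were higher in LL2. Rpsa had 2583, 2640 and 2710 TPM in CT26 and 2776, 2593 and 2628 TPM in LL2 controls, which overlapped (0.01, limma adjusted p = 0.87). Rps7, a small-subunit protein needed for 18S rRNA processing, went from 1182, 1198 and 1343 TPM to 3461, 3310 and 3336 TPM (1.44, SE 0.07, limma adjusted p = 7.8e-12). The 5 members called lower in LL2 were Rpl39l, Rps3a3 (-1.09), Rps3a2 (-1.004), Rpl10 (-0.25), which joins the large subunit late in its assembly, and Rpl7l1 (-0.19, adjusted p = 0.012). The Rpl10 call was lost under median-ratio rescaling (-0.15), and the Rpl7l1 call without the second CT26 control (-0.15), while quantile normalization gave Rpl7l1 0.010.

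Other genes of these libraries differed between the tumour lines as well. Fibroblast markers (Col1a1, Col1a2, Pdgfra, Dcn and Lum) summed to 2951 to 4310 TPM in CT26 controls, 1026 to 1166 TPM in CT26NYESO1 and 899 to 1123 TPM in LL2. Of these 5, all were lower in CT26NYESO1 than in CT26, and in LL2 3 were lower and 2 higher. Endothelial markers (Pecam1, Cdh5, Kdr and Tie1) summed to 279 to 329, 47.4 to 65.0 and 58.6 to 90.8 TPM, and 4 of 4 were lower in both. Macrophage markers summed to 1970 to 2263, 1724 to 2301 and 959 to 1141 TPM, with 2 of 5 lower in CT26NYESO1 and 5 of 5 in LL2, and natural killer cell markers to 65.5 to 88.5, 44.1 to 67.5 and 2.85 to 7.39 TPM, with 0 of 3 and 2 of 3 called lower. T cell markers summed to 11.7 to 16.4, 16.2 to 38.6 and 3.44 to 10.6 TPM, with 3 of 5 higher in CT26NYESO1 and 2 of 5 lower in LL2. Skeletal muscle markers summed to 3.39 to 6.80, 4.18 to 117 and 70.9 to 148 TPM. Of the 4 muscle markers tested, 0 were called in CT26NYESO1 and 3 were higher in LL2. The 6 proliferation markers covered 920 to 1049, 974 to 1003 and 907 to 930 TPM. None of the markers in this paragraph was listed at 0 throughout, and their part in the ribosomal protein differences was not tested. Differences also moved with transcript length. Other protein-coding genes of at least 100 TPM had median differences between CT26NYESO1 and CT26 of -0.03 under 1000 bases (449 genes), -0.17 in the next length class (506 genes) and -0.27 in the longest (538 genes), and between LL2 and CT26 of -0.07, -0.13 and -0.15. The 69 members under 1000 bases had 0.63 and 0.62, and the 15 longer members 0.49 and 0.47.

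The members with the largest rises in LL2 against CT26 (Rpl29, Rpl26, Rpl35a and Rps2) have near-identical copies elsewhere in the genome, as most members do. A search of GENCODE M21 found 552 genes in the table, 525 of them processed pseudogenes, that match a member's coding sequence at 95% identity or more over at least 80% of its length. They belong to 76 of the 84 members with an annotated coding sequence. A further 6 members match another member in this way, among them Rps3a2. These 6 stayed as rows of their own and were not added to the member they match. Rpl26, a large-subunit protein near the exit tunnel (chr11:68901583-68906989, plus strand), and its copy Gm15772 (chr5:3236431-3236868, plus) differ at 2 of 435 coding bases, C177T and T288C, counted from the start codon with the member's base first. Rpl29 (chr9:106429454-106431568, plus), a large-subunit protein found in eukaryotes, and its copy Gm8210 (chr1:43189156-43189638, plus) differ at 3 of 480 bases, C72A, C300T and T423C. The stretches below, from bases 118 to 177 of Rpl26 and 13 to 72 of Rpl29 in GENCODE M21 (GRCm38), show how little sets a read of each apart, with the differing base in capitals. Over 10 such pairs, 29 of 32 differences were at the third codon position.
Rpl26: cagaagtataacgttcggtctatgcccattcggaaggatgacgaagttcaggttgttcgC
Gm15772: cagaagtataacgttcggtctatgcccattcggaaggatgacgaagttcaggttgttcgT
Rpl29: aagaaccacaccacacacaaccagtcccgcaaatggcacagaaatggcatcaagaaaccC
Gm8210: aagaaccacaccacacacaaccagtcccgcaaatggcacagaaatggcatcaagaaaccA

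In the deposited values, TPM is divided between member and copy in opposite ways in the CT26-derived and the LL2 libraries. Rpl26 had 497, 461 and 570 TPM in CT26 controls, 688, 670 and 650 in CT26NYESO1 and 3215, 3462 and 3650 in LL2, a difference of 2.76 (SE 0.08, limma adjusted p = 1.6e-14) between LL2 and CT26. Gm15772 had 1514 to 1843 TPM in the 6 CT26 libraries, 2150 to 2559 TPM in the 6 of CT26NYESO1 and 10.3 to 15.4 TPM in LL2. The member is thus low in exactly the libraries in which the copy is high. With all copies added to the member, Rpl26 differed by 0.67 (SE 0.07, adjusted p = 3.2e-07).

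Rpl29 had 212, 182 and 204 TPM in CT26 controls, 263, 269 and 279 in CT26NYESO1 and 2053, 2097 and 2167 in LL2 (3.40 between LL2 and CT26, SE 0.06, limma adjusted p = 2.7e-17). Gm8210 had 467 to 510, 639 to 740 and 2.86 to 4.19 TPM in the 3 lines. With copies summed, the Rpl29 difference was 0.84. Rps2, which lines the mRNA entry channel, had 1218, 1229 and 1224 TPM in CT26 and 5499, 5269 and 5171 in LL2 controls (2.12, SE 0.04). Its copies held 75.8% of the summed TPM in CT26, 75.1% in CT26NYESO1 and 2.3% in LL2, and with them the difference no longer passed (0.07, limma adjusted p = 0.11). For Rpl35a, mutated in some patients with Diamond-Blackfan anaemia, 2.19 became 0.58.

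Some members changed direction when copies were added, and others kept it with a smaller difference. Rpl30, Rpl21 and Rpl3, chosen after their values were seen, differed between LL2 and CT26 by 1.09, 0.59 and 1.12 alone, and by -0.39, -0.41 and 0.58 with copies. The difference of Rplp0 went from 0.59 to -0.016 (limma adjusted p = 0.86). Rpl41, which encodes the shortest ribosomal protein, had 73.8%, 73.4% and 73.5% of its summed TPM in copies in CT26, CT26NYESO1 and LL2, the same division in all lines. In CT26 and in CT26NYESO1, 7 members (Rpl21, Rpl26, Rpl29, Rpl30, Rpl35a, Rpl41 and Rps2) had more TPM in copies than in their own row, and in LL2 only Rpl41 did.

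**Figure D3:**
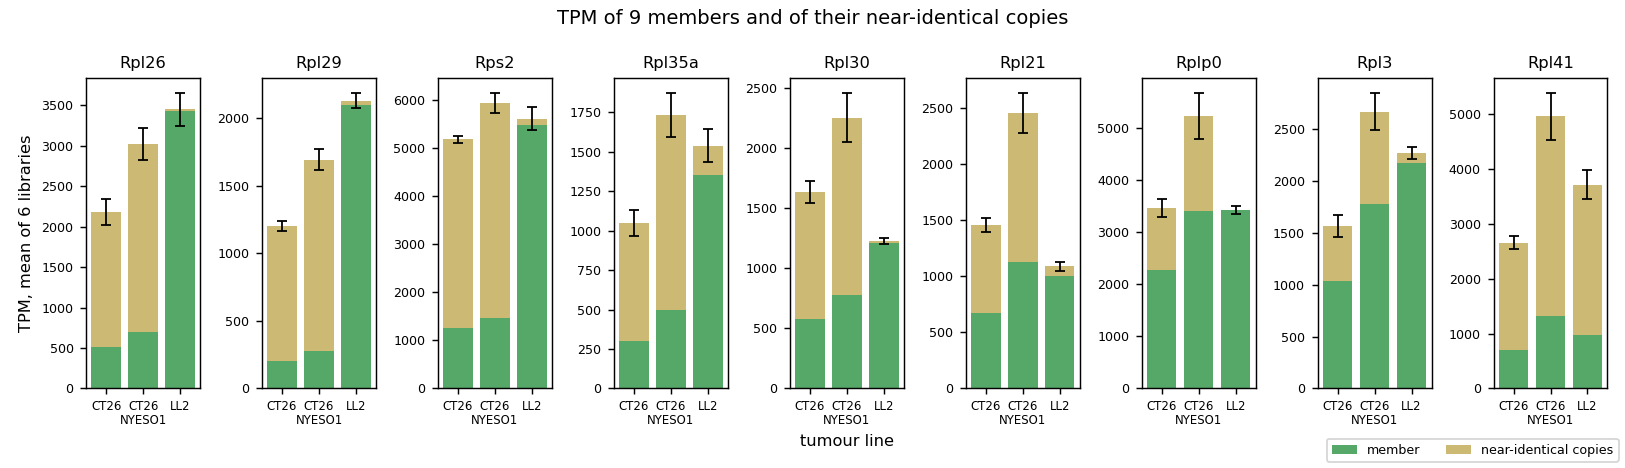
TPM of 9 members (lower part of each bar) and of their near-identical copies summed (upper part), as means of 6 libraries for each tumour line, with SD whiskers for the total. The copies take more than the member for Rpl26, Rpl29 and Rps2 in CT26 and CT26NYESO1 and almost nothing in LL2, while Rpl41 keeps 1 division in all lines.

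The counts changed less than these single genes. With copies summed, 80 members were higher and 2 lower in CT26NYESO1 than in CT26, the same genes as before. For LL2 against CT26, 70 were higher and 7 lower in place of 74 and 5, with 70 and 5 shared and 2 turned from higher to lower. Among the 5 shared lower calls were Rps3a2 and Rps3a3, copies of Rps3a1 that stayed as rows of their own. The median was 0.48, and members at 2-fold or more went from 15 to 9. For LL2 against CT26NYESO1, 17 were higher and 41 lower, with a median of -0.12. The share of TPM in members and copies together was 11.2% ± 0.728 in CT26, 17.3% ± 0.559 in CT26NYESO1 and 16.0% ± 0.223 in LL2 controls (SD, n = 3).

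**Figure D4:**
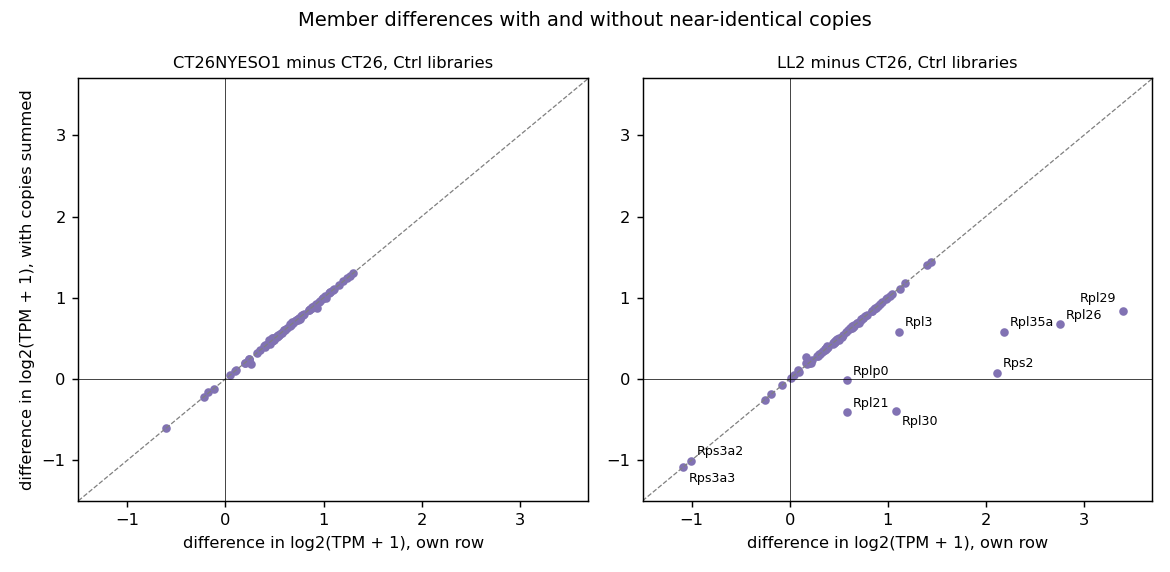
Difference in log2(TPM + 1) of each member by its own row (horizontal) and with near-identical copies summed (vertical), for CT26NYESO1 minus CT26 (left) and LL2 minus CT26 (right) in control libraries, with equality dashed. Points follow the line on the left, while on the right Rpl29, Rpl26, Rps2 and Rpl35a drop to between 0.07 and 0.84 and Rpl30 and Rpl21 below 0. Rpl39l lies outside the axes on the right.

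Rps3a1, a small-subunit protein, and its copy Rps3a2 differ at 4 coding bases and also parted in LL2. Rps3a1 had 1812, 1853 and 2023 TPM in CT26, 4006, 4382 and 3898 in CT26NYESO1 and 3488, 3309 and 3519 in LL2 controls. Rps3a2 had 197, 207 and 226, then 484, 533 and 476, and then 99.6, 103 and 109 TPM. Against CT26, Rps3a1 was higher in LL2 by 0.86 and Rps3a2 was lower (-1.004, SE 0.07, limma adjusted p = 1.5e-09). Levels of such pairs are uncertain, since a read can match both.

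Rpl39l was the member with the widest span of levels. It is an autosomal copy of the X-linked gene Rpl39, best known from male germ cells, and its protein can replace Rpl39 at the exit tunnel of the large subunit. Rpl39 lies at chrX:37082520-37085402 (minus strand) and Rpl39l at chr16:10170226-10174911 (plus strand) in GENCODE M21. Their coding sequences differ at 23 of 153 bases, 16 of them at the third codon position, so unlike the pseudogenes they are 85.0% identical; differing bases are in capitals.
Rpl39: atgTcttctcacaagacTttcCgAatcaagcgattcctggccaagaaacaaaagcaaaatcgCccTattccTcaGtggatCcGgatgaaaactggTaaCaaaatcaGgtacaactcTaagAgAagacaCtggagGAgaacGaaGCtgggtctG
Rpl39l: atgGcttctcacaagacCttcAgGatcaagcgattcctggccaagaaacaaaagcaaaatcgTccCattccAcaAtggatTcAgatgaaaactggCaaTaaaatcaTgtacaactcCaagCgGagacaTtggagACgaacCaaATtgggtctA

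Rpl39l had 161, 165 and 196 TPM in CT26 controls and 171, 184 and 187 TPM after OK-432. In CT26NYESO1 it had 163, 201 and 195 TPM and, treated, 187, 175 and 181 TPM. In LL2 it had 0.425, 0.515 and 0.0647 TPM and, treated, 0.0926, 0.258 and 1.17 TPM. All 12 CT26-derived libraries stood above 160 TPM and all 6 LL2 libraries near 0. The mean of the controls was 520 times as high in CT26 and 556 times as high in CT26NYESO1 as in LL2. On the log2(TPM + 1) scale, which understates it, LL2 minus CT26 was -7.05 (SE 0.19, limma adjusted p = 3.6e-14).

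Rpl39 itself stood at 340, 303 and 391 TPM in CT26, 256, 336 and 320 in CT26NYESO1 and 370, 389 and 396 in LL2 controls. The ranges of CT26 and the other lines overlapped, and neither difference passed: -0.18 for CT26NYESO1 (limma adjusted p = 0.16, with a sign that turned to 0.036 under median-ratio rescaling) and 0.17 for LL2 (adjusted p = 0.18, but past the threshold under quantile normalization, 0.35, and when ribosomal protein and mitochondrially encoded genes were left out of the scaling, 0.32).

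Rpl22 and Rpl22l1, whose protein can take the place of Rpl22, changed rank between lines. Rpl22 had 148, 158 and 175 TPM in CT26, 212, 243 and 220 in CT26NYESO1 and 296, 315 and 341 in LL2 controls. Rpl22l1 had 176, 137 and 204, then 287, 357 and 332, and then 207, 206 and 220 TPM. The ratio of Rpl22l1 to Rpl22, taken in each library and averaged, was 1.07 ± 0.181 (SD, n = 3) in CT26, 1.45 ± 0.0832 in CT26NYESO1 and 0.665 ± 0.0297 in LL2 controls, and 0.955 ± 0.294, 1.54 ± 0.0785 and 0.674 ± 0.0470 after OK-432. Rpl22 differed from CT26 by 0.49 in CT26NYESO1 (limma adjusted p = 0.0067) and 0.98 in LL2 (1.3e-05), and Rpl22l1 by 0.93 (2.7e-06) and 0.31 (0.027). The last call was lost without the second CT26 control (0.15).

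Rps27 and Rps27l, the second of them a known p53 target, and Rpl36a and Rpl36al also moved apart. Rps27 was higher in CT26NYESO1 by 0.80 and in LL2 by 0.66, while Rps27l did not pass in CT26NYESO1 (0.11, limma adjusted p = 0.2, but 0.33 and past the threshold under median-ratio rescaling) and was higher in LL2 by 0.45. Their ratio, Rps27l to Rps27, was 0.423, 0.262 and 0.365 in the CT26, CT26NYESO1 and LL2 controls. Rpl36a was higher by 0.56 in CT26NYESO1 and did not pass in LL2 (0.20, adjusted p = 0.058), whereas Rpl36al differed by 0.20 and 0.66, and the first of these was lost without the first CT26 control (0.17) or the second CT26NYESO1 control (0.14). The ratio of Rpl36al to Rpl36a was 0.651, 0.504 and 0.894.

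**Figure D5:**
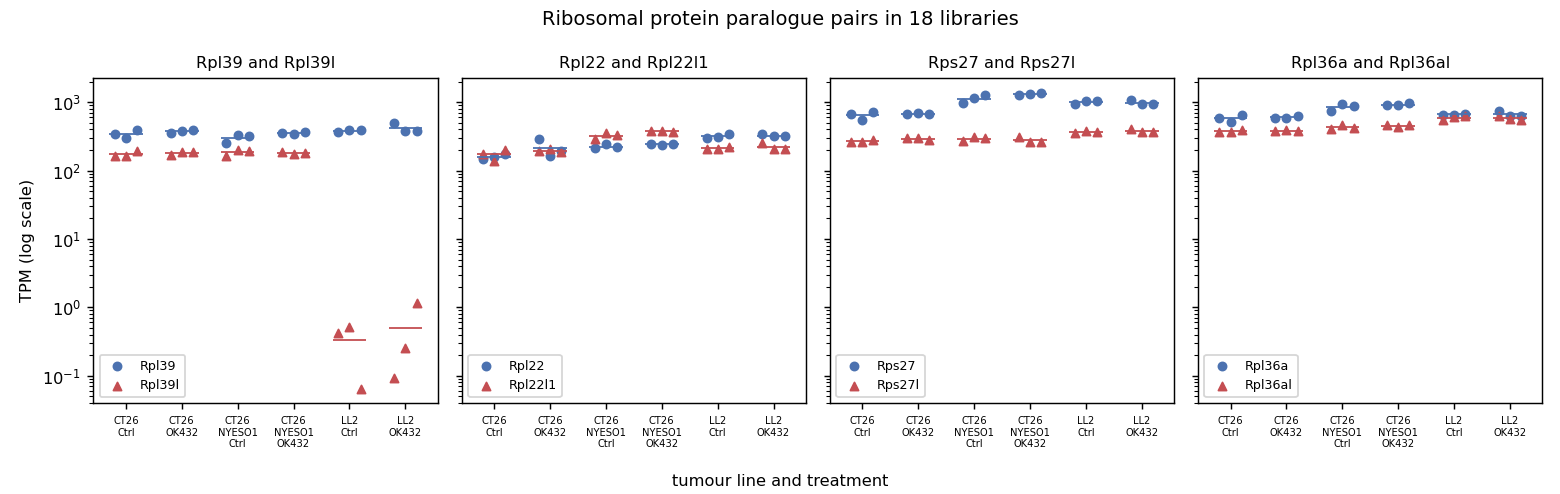
TPM on a log axis of 4 ribosomal protein genes (circles) and their paralogues (triangles) in 18 libraries, by tumour line and treatment, with group means as lines. Rpl39l is below 1.2 TPM in all LL2 libraries and above 160 TPM in the others. By group mean, Rpl22l1 lies above Rpl22 only in CT26NYESO1 and in CT26 controls, and its ratio to Rpl22 in single CT26 libraries runs from 0.655 to 1.24.

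Genes of the same machinery did not all follow the members. The lists were named from textbook knowledge and are described by counts, beside the shares of all genes given above. Of ribosomal proteins under other names, Fau was higher in CT26NYESO1 and LL2 than in CT26 by 0.84 and 0.90, and Rack1, a scaffold on the small subunit, by 0.43 and 0.37. Under quantile normalization both Rack1 calls were lost (0.028 and 0.053). Of 20 other mRNAs with a terminal oligopyrimidine start, 16 were higher and 2 lower in CT26NYESO1 (median 0.41), and 16 and 1 in LL2 (median 0.47). Tpt1 differed by 1.30 in CT26NYESO1, and Gas5, a snoRNA host gene, by 0.97.

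The factors that build ribosomes and use them were split in direction. Of 46 ribosome assembly factors, 18 were higher and 16 lower in CT26NYESO1 than in CT26 (median -0.03), and 20 and 10 in LL2 (0.08). Initiation factors gave 9 higher and 18 lower of 35 in CT26NYESO1 and 17 and 10 in LL2. Of 17 genes of RNA polymerase I, which transcribes rRNA, 5 were higher and 6 lower in CT26NYESO1, and 11 and 2 in LL2. Mitochondrial ribosomal proteins, which serve the separate ribosome of mitochondria, gave 20 higher and 34 lower of 78 in CT26NYESO1 (median -0.12) and 38 and 22 in LL2 (0.12). Their share of TPM stayed between 0.403% and 0.498% in the 6 groups. Mitochondrially encoded genes held 4.31% of TPM in CT26, 6.27% in CT26NYESO1 and 7.25% in LL2 controls, so they too were lowest in CT26.

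Of 19 regulators of ribosomal protein mRNA, 2 were higher and 15 lower in CT26NYESO1 than in CT26 (median -0.31), and 9 were higher and 7 lower in LL2 (median -0.11). Eif4ebp1, the mTOR target that holds back cap-dependent initiation, differed by -0.86 in CT26NYESO1 and -1.39 in LL2, and Myc, which drives ribosome production, by 1.43 in LL2. Of 19 p53 targets, 11 were higher and 5 lower in CT26NYESO1 and 15 and 1 in LL2, with Cdkn1a, the cell cycle inhibitor p21, at 2.11 and 2.56. After OK-432 in CT26NYESO1, where 0 of 88 cytosolic members were called, 2 of 46 assembly factors (Nhp2 and Pno1, both -0.34) and 3 of 78 mitochondrial ribosomal proteins (Mrpl57 at -0.35, Mrpl20 at -0.32 and Mrpl2 at -0.28) were called lower, against 0.256% of all genes. All 5 calls were lost without treated replicate 3 (limma adjusted p = 0.21 to 0.29), without control replicate 2 or 3 (0.080 to 0.12) and with a replicate block (0.070 to 0.11). Over all alternatives run, the call was lost in 8 for Pno1, 13 for Nhp2, 13 for Mrpl20, 22 for Mrpl2 and 24 for Mrpl57.

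Among the genes outside the set whose levels tracked the members' mean most closely over the 18 libraries were Eef1b2 (r = 0.992), Rack1 (0.989), Naca (0.989) and Eef1a1 (0.989). These are Pearson correlations of log2(TPM + 1) over all 6 groups, so libraries of 1 line and treatment are among the points, and they are given as a description. Eef1a1, the elongation factor that delivers aminoacyl-tRNA, averaged 9332 TPM in CT26, 14409 TPM in CT26NYESO1 and 12939 TPM in LL2.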

How the data were processed

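Poly(A)-selected stranded libraries were made from TRIzol-extracted tumour RNA, per the labels' protocols. Trim Galore 0.6.5, STAR 2.7.3a, StringTie 2.1.2 and the mm10 build are named in the submitters' processing notes. Not given in the sources used here are the annotation and how reads matching several genes were divided. The deposited table holds TPM, made by the authors, for 55291 genes in 18 libraries, each summing to 1000000. TPM keeps no depth, so no counting error can be given.

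Genes with at least 1 TPM in 3 or more libraries (16816) were tested on log2(TPM + 1) with limma 3.58.1 in R 4.3.3, as 1 fit of 6 group means with 12 residual degrees of freedom and trended, robust shrinkage. The Benjamini-Hochberg adjustment ran over all genes tested. For the OK-432 comparison in CT26, the procedure was tested on simulated data. It recovered 68 of 100 genes changed by 0.5 and 94 of 100 changed by 1 (log2), with 11 false calls. The simulated data held many changed genes, whereas the measured comparison gave 0 calls among all genes tested. An adjusted threshold is easier to pass when many genes change, so these rates do not give the power behind the 0 calls after OK-432. Same-numbered libraries did not deviate together (r of -0.122 to 0.219, over 0.1 in 1 of 9 pairs). The labels name no batch. Near-identical copies were found with blastn 2.17.0 on GENCODE M21, and summing them was an alternative added after seeing the data.

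Named genes are the paralogues with their partners, per comparison the 5 largest called rises and falls or the 2 smallest p, the 5 highest and lowest, a panel of 10, up to 3 called genes of other lists and the 5 most similar genes. The members, lists and panel were chosen with earlier results of these data known. Some genes that this rule names are not reported here.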

Additional observations from a re-analysis of the deposited data

How the results depend on the processing

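Depth is unknown, groups of 3 limit the precision, and TPM shares sum to a fixed total, so scaling sets the medians. The 0 calls after OK-432 held under every alternative run except without the second treated CT26NYESO1 library (1 lower). CT26NYESO1 minus CT26 gave 1 member lower under median-ratio rescaling (median 0.83) and when scaled without ribosomal protein and mitochondrially encoded genes (0.75), and 6 under quantile normalization (0.47); in treated tumours 1 (0.91), 1 (0.80) and 8 (0.44). LL2 minus CT26 gave 3 (0.66), 3 (0.71) and 8 (0.45) lower and a median of 0.48 with copies; in treated tumours the medians were 0.65, 0.68 and 0.40, with 8 lower under quantile normalization. LL2 minus CT26NYESO1 gave 14 higher (-0.17) under median-ratio rescaling and -0.12 with copies; treated, -0.26, and 30 higher (-0.039) under quantile normalization.

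Shares without the 10 highest members were 7.14% and 7.38% (CT26 control and treated), 11.2% and 11.9% (CT26NYESO1) and 11.5% and 11.7% (LL2). With copies they were 11.2%, 11.5%, 17.3%, 18.3%, 16.0% and 16.3%, and outside mitochondrially encoded genes 10.4% (CT26 treated), 16.1%, 17.0%, 16.5% and 16.8%.

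Signs of single genes turned with copies for LL2 minus CT26NYESO1 in Rps2 (-0.11, treated -0.046) and Rpl35a (-0.14, treated -0.19), and for LL2 minus CT26 in Rplp0 (-0.016), Rpl30 (-0.39) and Rpl21 (-0.41). Under quantile normalization they turned for CT26NYESO1 minus CT26 in Rps19bp1 (0.0099, treated 0.039), Rpsa (-0.088), Rps6 (-0.048) and Rps27a (-0.16), and for LL2 minus CT26 in Rpl7l1 (0.010), Rpsa (-0.37) and Rps15 (-0.23). Median-ratio rescaling turned CT26NYESO1 minus CT26 in Rps19bp1 (treated, 0.043), Rpl39 (0.036) and Rps15 (0.10), and scaling without the 2 gene groups turned Rps15 (0.0083). Leaving out single libraries turned Rpsa in LL2 minus CT26 (-0.018 to 0.031 over all single libraries left out). Rescaling also ended the calls of Rps19bp1 (-0.0072 and -0.094) in CT26NYESO1 and of Rpl10 (-0.15 and -0.10) and Rpl7l1 (-0.088 and -0.040) in LL2 minus CT26, and Rpl36a passed there in 8 alternatives. The cause was not tested. A replicate block left the counts at 80 and 2 (CT26NYESO1 minus CT26) and 74 and 5 (LL2 minus CT26), and at 0 for OK-432.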
